A study of Mus musculus with 11 samples.

Results

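Transcripts of 10 mouse genes for cytosolic and mitochondrial heat shock proteins were examined in cells with and without the RNA methyltransferase gene Mettl3. The genes were Hspa1a, Hspa1b, Hspa8, Dnajb1, Hsph1, Hsp90aa1, Hspb1, Hspd1, Hspe1 and Bag3. They were taken by symbol, through their Ensembl identifiers in the GENCODE annotation of GRCm38, from the 39179 genes of the deposited table, and all 10 were found. All 10 also passed the filter for testing, a mean normalized count of 10 or more over the libraries, which 15781 genes passed.

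RNA-seq libraries came from Mettl3 knockout (KO) embryonic stem cells (ESCs), wild-type (WT) ESCs, KO embryoid bodies (EBs) and WT EBs, all of strain C57BL/6. Each ESC group had 3 libraries, lettered A, B and C, and each EB group had 2, lettered A and B. ESCs of both genotypes were grown without serum in N2B27-based medium with LIF and the inhibitors CHIR99021 (of GSK3) and PD0325901 (of MEK), and EBs of both genotypes are aggregates kept off the dish surface in serum medium for 8 to 21 days. The labels call the replicates biological, and p-values measure the spread between libraries as labelled. The fit of group means takes the spread of each gene from ESCs and EBs together. Errors and p-values for EBs therefore also carry the spread of the ESC libraries. The knockout allele, the number of clones and the day of each EB library are not given in the sources used here.

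Heat shock proteins are chaperones, which bind unfolded proteins and help them to fold. HSP70 proteins bind and release their clients in a cycle driven by ATP, with J-domain proteins delivering the clients and exchange factors opening the nucleotide pocket. Heat and other damage to proteins activate the transcription factor HSF1, which binds repeats of a short unit, the heat shock element, in front of many of these genes, and other family members are also made in unstressed cells.

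In the libraries labelled KO, Mettl3 itself had 138, 133 and 131 normalized counts in ESCs and 154 and 147 in EBs, against 422, 392 and 425 in WT ESCs and 399 and 368 in WT EBs. Both ESC replicate C libraries, which the labels tie to a SILAC protein assay, held 3075007 reads in genes in KO and 3026837 in WT, and the other 8 libraries held 8523027 to 15426894. Alignments that were not unique made up 28.7% of records in KO ESC replicate C and 30.6% in WT ESC replicate C, and 36.9% to 46.1% in the others. The summed normalized count of 8 fibroblast markers was 189 in KO and 237 in WT ESC replicate C, and 11124 to 11408 in KO and 6608 to 6738 in WT ESC replicates A and B. Among these markers Thy1 went the other way, with 97.2 in KO and 92.2 in WT replicate C. In replicates A and B it had 29.4 and 30.9 in KO and 57.2 and 55.7 in WT. Results are therefore given with and without the pair of replicate C libraries. The marker sum in A and B also differed between KO and WT ESCs, and its part in the results without replicate C was not tested.

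The stretches just upstream of 5 members are shown, those of 2 near-identical HSP70 genes, the small heat shock gene Hspb1 and the divergent mitochondrial pair. Each of these holds a heat shock element, and the stretches of Hsph1, Dnajb1 and Bag3 are not printed. RefSeq promoter windows (GRCm38.p6), each 250 bases before to 50 bases after a start, existed for 8 of the members, which have 11 windows. The stretches run from base -170 to base -1 before the start, and capitals mark the letters of a heat shock element of 2 units (GAANNTTC or TTCNNGAA), or of overlapping elements. Their regions are chr17:34972157-34972326 (minus strand) for Hspa1a, chr17:34959239-34959408 (minus) for Hspa1b, chr5:135887749-135887918 (plus) for Hspb1, chr1:55087933-55088102 (minus) for Hspd1 and chr1:55087978-55088147 (plus) for Hspe1.
Hspa1a: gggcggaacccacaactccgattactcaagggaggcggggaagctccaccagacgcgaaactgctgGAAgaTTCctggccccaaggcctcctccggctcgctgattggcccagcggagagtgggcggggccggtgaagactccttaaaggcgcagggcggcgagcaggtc
Hspa1b: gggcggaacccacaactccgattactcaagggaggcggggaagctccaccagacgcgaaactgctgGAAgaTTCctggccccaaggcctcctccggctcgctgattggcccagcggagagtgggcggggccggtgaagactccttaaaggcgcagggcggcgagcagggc
Hspb1: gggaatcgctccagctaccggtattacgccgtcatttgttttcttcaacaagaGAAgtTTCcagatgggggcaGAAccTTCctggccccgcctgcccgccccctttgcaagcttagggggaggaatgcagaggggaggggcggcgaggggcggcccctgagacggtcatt
Hspd1: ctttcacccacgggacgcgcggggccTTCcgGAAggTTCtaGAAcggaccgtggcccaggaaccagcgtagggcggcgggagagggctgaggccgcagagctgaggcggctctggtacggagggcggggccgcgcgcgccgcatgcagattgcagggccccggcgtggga
Hspe1: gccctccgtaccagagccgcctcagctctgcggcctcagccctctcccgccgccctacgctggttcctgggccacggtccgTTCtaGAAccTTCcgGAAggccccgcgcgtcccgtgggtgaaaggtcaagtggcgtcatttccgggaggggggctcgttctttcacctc

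The windows of Hspa1a and Hspa1b differed at 4 of 300 bases, and each had 1 element at base -104 to -97. The Hspb1 window held 2 elements, at -117 to -110 and at -97 to -90. Hspd1 and Hspe1 start in opposite directions, and 285 bases of an Hspd1 window are the reverse complement of the Hspe1 window. Their shared run of elements, which overlap one another, has 4 units of GAA or TTC and lies at -89 to -72 from the Hspe1 start. RefSeq gives 2 starts for Hspd1. The run lies at -144 to -127 from the start at chr1:55087932, whose window is printed, and 167 to 184 bases downstream of the start at chr1:55088243, whose own window held 0 matches. Both motifs read the same on both strands, so 1 search covered both. A 2-unit element was present in 8 of the 11 windows (72.7%), belonging to 7 members, and in 15.1% of all 32851 RefSeq windows. The 11 windows are not separate. Those of Hspa1a and Hspa1b are near-identical, an Hspd1 window overlaps that of Hspe1, and the Hsph1 windows overlap each other. A 3-unit element, in which a further GAA or TTC follows the 2-unit letters after a spacer of 2 bases in the same alternation, was present in windows of 3 members, Hspd1, Hspe1 and Hsph1, and in 0.603% of all windows. In Hsph1 it lay after the start, at base 36 to 48 or 15 to 27 depending on the start used. Before the start Hsph1 had a 2-unit element, at -33 to -26 or -54 to -47. No 2-unit letters were found in the Dnajb1 windows, and the only Bag3 match lay after the start, at base 42 to 49. A match of letters is a description and shows no binding.

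**Figure D1:**
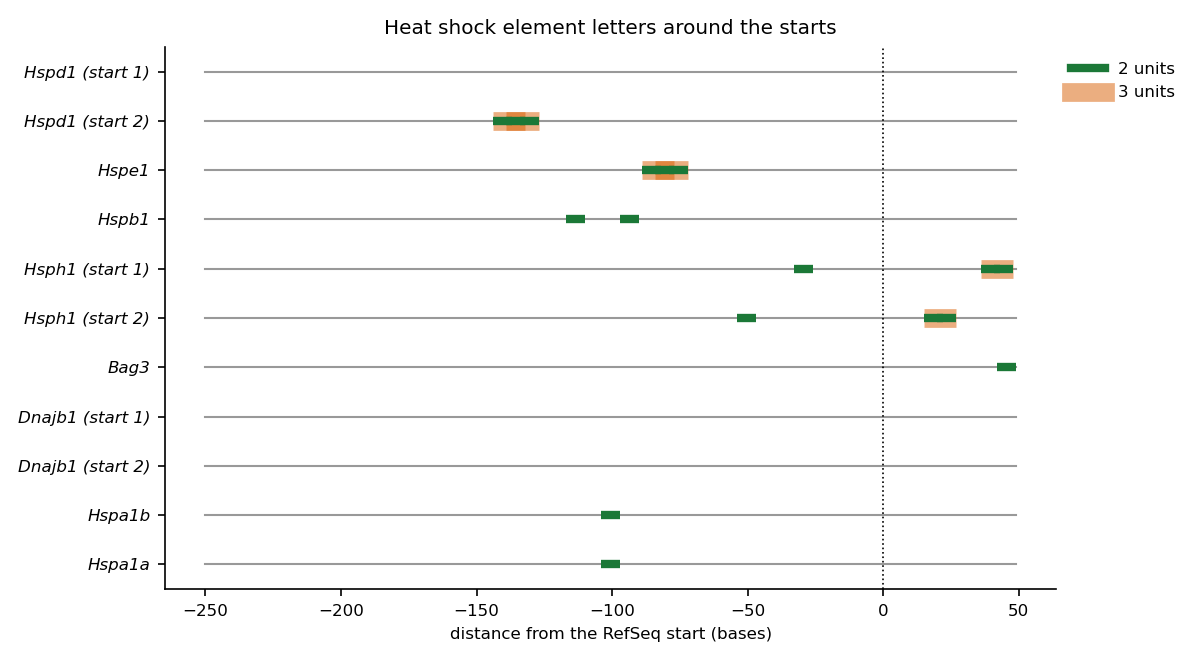
Positions of heat shock element letters in the 11 RefSeq promoter windows of 8 members, in bases from the start (dotted line). Green bars are 2-unit motifs and orange bars are 3-unit motifs, and the shared elements lie upstream of the Hspe1 start and of 1 of the 2 Hspd1 starts, with 0 matches in the window of the other.

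Several members share sequence with other genes, which bears on how reads could be assigned. Of the 50-base windows of the longest transcript, taken every 5 bases, 60.3% of those of Hspa1a and 62.1% of those of Hspa1b also occurred in another gene, chiefly in each other. The share was 58.4% for Hsp90aa1, 51.4% for Hspb1, 51.0% for Hspa8 and 44.6% for Hspd1, chiefly in processed pseudogenes. It was 7.65% for Hspe1, 0.339% for Dnajb1 and 0 for Hsph1 and Bag3. Exons of Hspa1a also overlap Gm20481 on the opposite strand over 19.0% of their length, those of Hspd1 and Hspe1 overlap each other over 4.24% and 7.60%, and those of Hspa8 contain snoRNA genes over 6.09%. The library kit does not keep the strand, so reads from such overlaps cannot be told apart and the values of these genes are uncertain to that extent.

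Per kilobase of exon, in ESC replicates A and B and in the EBs, the cytosolic HSP90 gene Hsp90aa1 had the highest level of the 10 in every group. It averaged 4451 ± 157 normalized counts per kilobase in KO ESCs and 3674 ± 230 in WT ESCs, and 2343 ± 85.0 in KO EBs and 2097 ± 124 in WT EBs (SD, n = 2 each). Hspe1 had the next highest mean, with 782 ± 10.0 in KO ESCs and 1166 ± 6.73 in WT ESCs, and 759.7 ± 5.79 in KO EBs and 1127 ± 29.8 in WT EBs. In WT this place was not resolved, since Hspe1 differed by less than the spread from Hspb1 (1066 ± 230) in ESCs and from Hspa8 (1081 ± 152) and Hspb1 (1027 ± 192) in EBs. Hspa1a had the lowest level in ESCs, with 8.32 ± 0.944 in KO and 10.2 ± 1.29 in WT. In KO ESCs the neighbouring levels of Hspb1 (332 ± 55.9) and Hspa8 (282 ± 52.4) differed by less than their spread, as did those of Hspb1, Hspd1 (968 ± 35.6) and Hspa8 (873 ± 114) in WT ESCs. The other members lay between these levels.

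The inducible HSP70 genes Hspa1a and Hspa1b, whose protein is made at high levels after heat shock, were higher in EBs than in ESCs, and higher in KO EBs than in WT EBs. Hspa1a (ENSMUSG00000091971, chr17:34969190-34972156, minus strand) had 26.7, 22.7 and 22.2 normalized counts in KO ESCs and 32.9, 27.5 and 23.1 in WT ESCs. The replicate C values rest on 8 reads in KO and 7 in WT ESCs. Hspa1a had 305 and 285 in KO EBs, against 109 and 101 in WT EBs. The EB groups did not overlap each other or any ESC library, while the ESC groups overlapped. The KO minus WT difference on the log2(normalized count + 1) scale was 1.49 ± 0.31 (SE) in EBs, with an adjusted p of 0.0652 in the limma fit of the 4 group means, 0.00918 with the replicate letter as a block and 9.44e-05 without the replicate C libraries. In ESCs it was -0.20 ± 0.26 (adjusted p = 0.84, 0.374 with the block, and -0.28 with adjusted p = 0.163 without replicate C). Log2 differences below are on this scale, which understates the change of low genes, and adjusted p-values are from limma over all genes tested. Values given for edgeR or DESeq2, which test read counts, are the exceptions. The block was fitted by letter in ESCs and in EBs, though pairing in EBs was not established.

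Hspa1a passed the threshold of 0.05 for EBs against ESCs in both genotypes, by 3.58 ± 0.29 in KO (adjusted p = 0.0199) and by 1.89 ± 0.29 in WT (adjusted p = 0.0183). The KO effect was larger in EBs than in ESCs by 1.69 ± 0.41, with an adjusted p of 0.183, of 0.0253 with the block and of 4.58e-04 without replicate C, where the difference was 1.77. With single libraries left out, the adjusted p ranged up to 0.425 for EBs against ESCs in KO and up to 0.288 in WT, while the differences stayed at 3.53 to 3.66 in KO and 1.77 to 2.01 in WT. The adjusted p for KO against WT EBs then ranged from 0.0199 to 0.479, with differences of 1.43 to 1.54.

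Hspa1b (ENSMUSG00000090877, chr17:34956436-34959238, minus strand) had 65.8, 41.8 and 72.2 normalized counts in KO ESCs and 124, 69.5 and 29.6 in WT ESCs. It had 386 and 299 in KO EBs, against 187 and 144 in WT EBs. The EB groups did not overlap each other, and both lay above their ESC groups. KO minus WT was 1.05 ± 0.62 in EBs (adjusted p = 0.566, 0.235 with the block, 0.0185 without replicate C) and -0.12 ± 0.50 in ESCs (adjusted p = 0.997, 0.857 with the block). Without replicate C, Hspa1b was called lower in KO ESCs, at -0.81 (adjusted p = 0.0477). In ESCs the sign differed between letters, at -0.91, -0.72 and 1.26 for A, B and C, where WT replicate C held 9 reads and KO replicate C held 26.

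Because reads from these genes are hard to assign, their normalized counts were also summed. The sum was 92.5, 64.5 and 94.4 in KO ESCs and 157, 96.9 and 52.7 in WT ESCs, and 691 and 584 in KO EBs and 296 and 244 in WT EBs. EBs against ESCs gave 2.93 ± 0.43 in KO (adjusted p = 0.0366) and 1.52 ± 0.43 in WT (adjusted p = 0.14, and 1.12 with adjusted p = 0.00562 without replicate C). KO against WT gave 1.24 ± 0.47 in EBs (adjusted p = 0.293, 0.00286 without replicate C) and -0.17 ± 0.39 in ESCs (adjusted p = 0.962). Without replicate C the sum was called lower in KO ESCs, at -0.67 (adjusted p = 0.0439).

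Sums of marker genes also differed between the EB genotypes. The summed normalized count of 8 endoderm markers was 270 to 279 in KO EBs and 45062 to 45571 in WT EBs, with 1 marker at 0 in both KO EB libraries, and that of 10 naive ESC markers was 28253 to 32604 in KO EBs and 17546 to 19855 in WT EBs. Their part in the results for EBs was not tested. In bulk libraries, fewer cells of a type and less RNA per cell cannot be told apart.

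**Figure D2:**
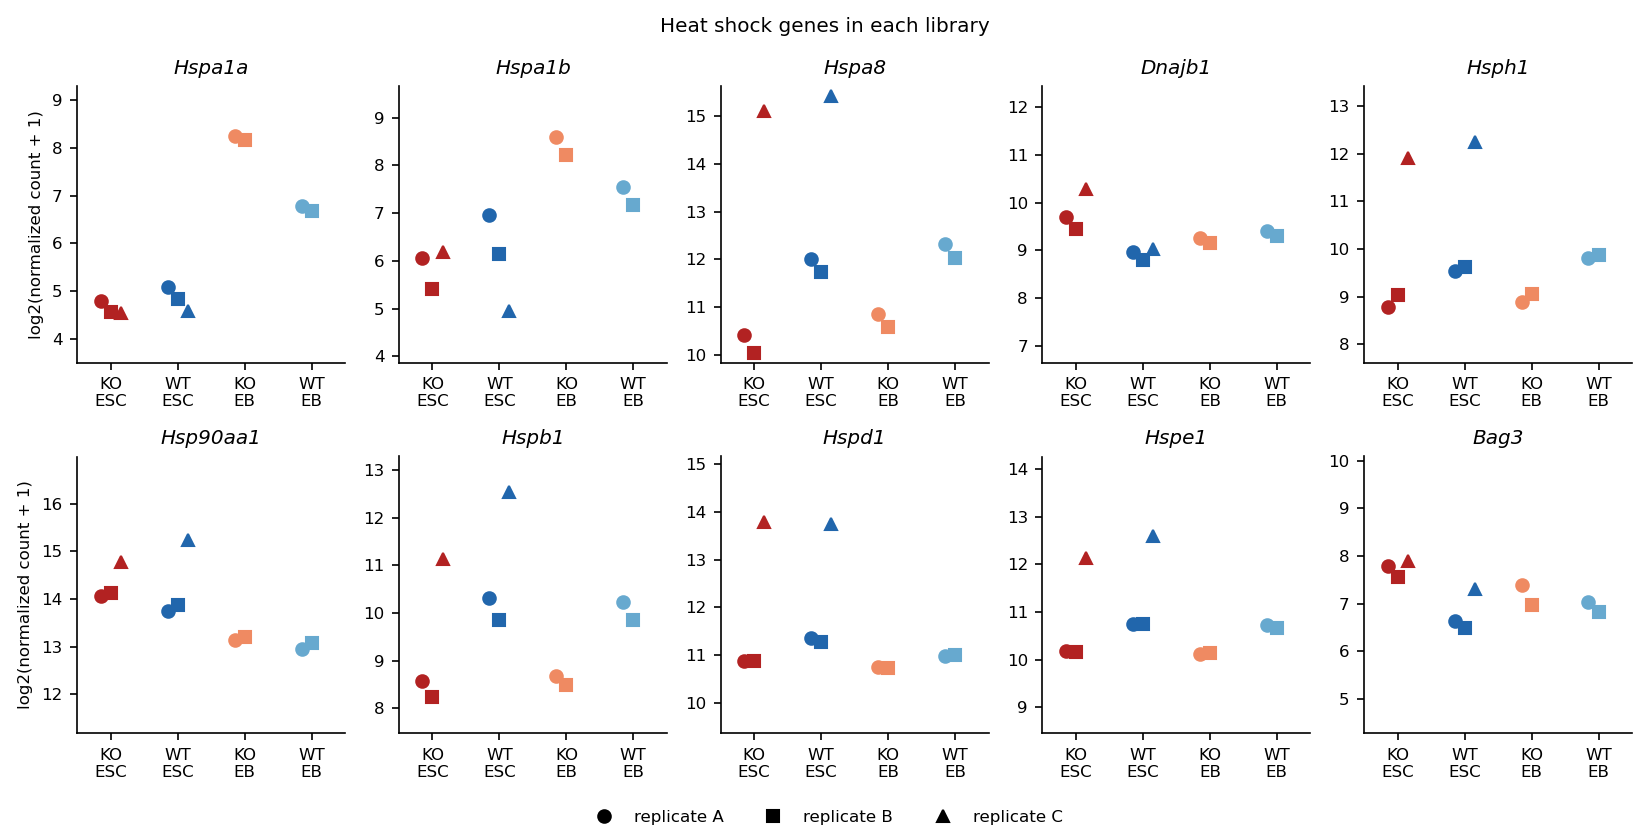
Level of each member, as log2(normalized count + 1), in every library, by group, where each panel spans the same number of log2 units. Hspa1a and Hspa1b are high in KO EBs, and replicate C (triangles) stands above A and B for Hspa8, Hsph1, Hspb1, Hspd1 and Hspe1 in both ESC groups.

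Among the partners of HSP70, the J-domain gene Dnajb1 and the exchange factor gene Bag3 were higher in KO ESCs than in WT ESCs, without overlap. These were the only members whose ESC groups did not overlap, 2 of 10 (18.0% of all genes tested did not overlap). Dnajb1 (ENSMUSG00000005483, chr8:83608193-83612653, plus strand), which delivers clients to HSP70, had 826, 697 and 1253 normalized counts in KO ESCs and 503, 447 and 524 in WT ESCs. It had 617 and 566 in KO EBs, against 674 and 632 in WT EBs, where the groups did not overlap either. KO minus WT was 0.87 ± 0.22 in ESCs (adjusted p = 0.0891, 0.0116 with the block, 7.68e-04 without replicate C) and -0.14 ± 0.27 in EBs (adjusted p = 1, 0.586 with the block, 0.292 without replicate C). The KO effect in EBs minus that in ESCs was -1.01 ± 0.35 (adjusted p = 0.393, and 0.056 with the block). Without replicate C it was -0.82 (adjusted p = 0.0033).

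Bag3 (ENSMUSG00000030847, chr7:128523616-128546981, plus strand), an exchange factor that also links HSP70 clients to autophagy, had 220.4, 187 and 236 normalized counts in KO ESCs and 98.0, 88.5 and 158 in WT ESCs. It had 167 and 124 in KO EBs, against 130.2 and 112 in WT EBs, and the EB groups overlapped. KO minus WT was 0.94 ± 0.27 in ESCs (adjusted p = 0.122, 0.0134 with the block, 6.23e-04 without replicate C) and 0.25 ± 0.33 in EBs (adjusted p = 0.946, 0.396 with the block, 0.242 without replicate C). DESeq2 on the recovered reads called both genes in ESCs, with adjusted p = 0.00724 for Dnajb1 and 0.0139 for Bag3, where it called 12.4% of all genes. Neither gene shares many windows with other genes.

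Hsph1 (ENSMUSG00000029657, chr5:149614287-149636376, minus strand), an HSP110 exchange factor of HSP70, had lower values in the KO library of every letter pair. Here and below, pairing by letter rests mainly on replicate C in ESCs and was not established in EBs. It had 442, 524 and 3836 normalized counts in KO ESCs and 745, 787 and 4882 in WT ESCs, and 477 and 531 in KO EBs, against 902 and 942 in WT EBs. The EB groups did not overlap, and the ESC groups overlapped, and replicate C lay above A and B in both genotypes. KO minus WT was -0.56 ± 0.97 in ESCs (adjusted p = 0.92, 0.0137 with the block, and -0.67 with adjusted p = 6.1e-04 without replicate C). In EBs it was -0.87 ± 1.19 (adjusted p = 0.956, 0.01 with the block, 1.53e-04 without replicate C).

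The constitutive HSP70 gene Hspa8 (ENSMUSG00000015656, chr9:40800984-40810087, plus strand), whose product folds newly made proteins in unstressed cells, also had lower values in the KO library of every letter pair. It had 1370.2, 1052 and 35462 normalized counts in KO ESCs and 4103, 3407 and 44285 in WT ESCs, and 1853 and 1527 in KO EBs, against 5109 and 4187 in WT EBs. The EB groups did not overlap, and in ESCs replicates A and B of KO lay below those of WT. KO minus WT was -1.20 ± 1.46 in ESCs (adjusted p = 0.828, 0.0327 with the block, and -1.64 with adjusted p = 5.62e-05 without replicate C). In EBs it was -1.46 ± 1.79 (adjusted p = 0.928, 0.0403 with the block, 1.16e-04 without replicate C). By letter, the ESC difference was -1.58 and -1.70 in A and B and -0.32 in C.

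Hsp90aa1 (ENSMUSG00000021270, chr12:110690605-110702728, minus strand), the stress-inducible cytosolic HSP90, had 17062, 17935 and 27927 normalized counts in KO ESCs and 13805, 15081 and 38428 in WT ESCs. It had 8974 and 9446 in KO EBs, against 7901 and 8588 in WT EBs, without overlap. Both EB groups lay below every ESC library. The KO minus WT difference was 0.03 ± 0.40 in ESCs (adjusted p = 0.999), where the sign was opposite in C (-0.46) and in A and B (0.31 and 0.25), and 0.16 ± 0.49 in EBs (adjusted p = 1, 0.109 without replicate C). Without replicate C, Hsp90aa1 was called higher in KO ESCs, at 0.28 (adjusted p = 0.0135), and the sum of Hsp90aa1 with its pseudogene copies, described below, was not, at 0.23 (adjusted p = 0.147). EBs minus ESCs was -1.15 ± 0.44 in KO (adjusted p = 0.307, and -0.93 with adjusted p = 2.56e-05 without replicate C) and -1.28 ± 0.44 in WT (adjusted p = 0.227, and -0.81 with adjusted p = 5.38e-05 without replicate C).

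The small heat shock protein gene Hspb1 (ENSMUSG00000004951, chr5:135887919-135889563, plus strand), whose product holds unfolded proteins without using ATP, had lower values in the KO library of all 5 letter pairs. It had 383, 302 and 2258 normalized counts in KO ESCs and 1266, 931 and 5916 in WT ESCs. It had 409.6 and 359 in KO EBs, against 1199 and 919 in WT EBs. The EB groups did not overlap, and the ESC groups overlapped only through KO replicate C, which lay above WT replicates A and B. KO minus WT was -1.72, -1.62 and -1.39 in ESC pairs A, B and C and -1.55 and -1.35 in EB pairs A and B.

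The fitted Hspb1 difference was -1.58 ± 0.90 in ESCs (adjusted p = 0.456, 0.00341 with the block, and -1.67 with adjusted p = 1.06e-04 without replicate C). In EBs it was -1.45 ± 1.10 (adjusted p = 0.718, 0.00359 with the block, 2.55e-04 without replicate C). Its pseudogene Hsp25-ps1 was listed with 329.8, 239.8 and 0 normalized counts in KO ESCs and 1123, 799 and 0 in WT ESCs, and with 403 and 299 in KO EBs and 1278 and 954 in WT EBs.

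The mitochondrial chaperonin genes Hspd1 and Hspe1, which encode the HSP60 barrel and its HSP10 lid, start side by side. Hspd1 (ENSMUSG00000025980, chr1:55077835-55088243, minus strand) had 1883, 1884 and 14231 normalized counts in KO ESCs and 2625, 2491 and 13772 in WT ESCs. It had 1709.8 and 1704 in KO EBs, against 2028 and 2042 in WT EBs, without overlap. The Hspd1 difference of KO minus WT was -0.28 ± 0.92 in ESCs (adjusted p = 0.987, 0.133 with the block) and -0.25 ± 1.13 in EBs (adjusted p = 1, 0.258 with the block). Without replicate C it was -0.44 in ESCs (adjusted p = 4.92e-04) and -0.25 in EBs (adjusted p = 0.00985).

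Hspe1 (ENSMUSG00000073676, chr1:55088132-55091307, plus strand) had 1163, 1142 and 4516 normalized counts in KO ESCs and 1712, 1726 and 6219 in WT ESCs. It had 1114 and 1126 in KO EBs, against 1692 and 1630.4 in WT EBs, without overlap. The KO library was lower in all 5 letter pairs, with KO minus WT of -0.56, -0.59 and -0.46 in ESC pairs A, B and C and of -0.60 and -0.53 in EB pairs A and B. The fitted difference was -0.54 ± 0.66 in ESCs (adjusted p = 0.829, 0.00552 with the block, and -0.58 with adjusted p = 1.14e-04 without replicate C) and -0.57 ± 0.81 in EBs (adjusted p = 0.965, 0.00944 with the block, 1.33e-04 without replicate C).

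**Figure D3:**
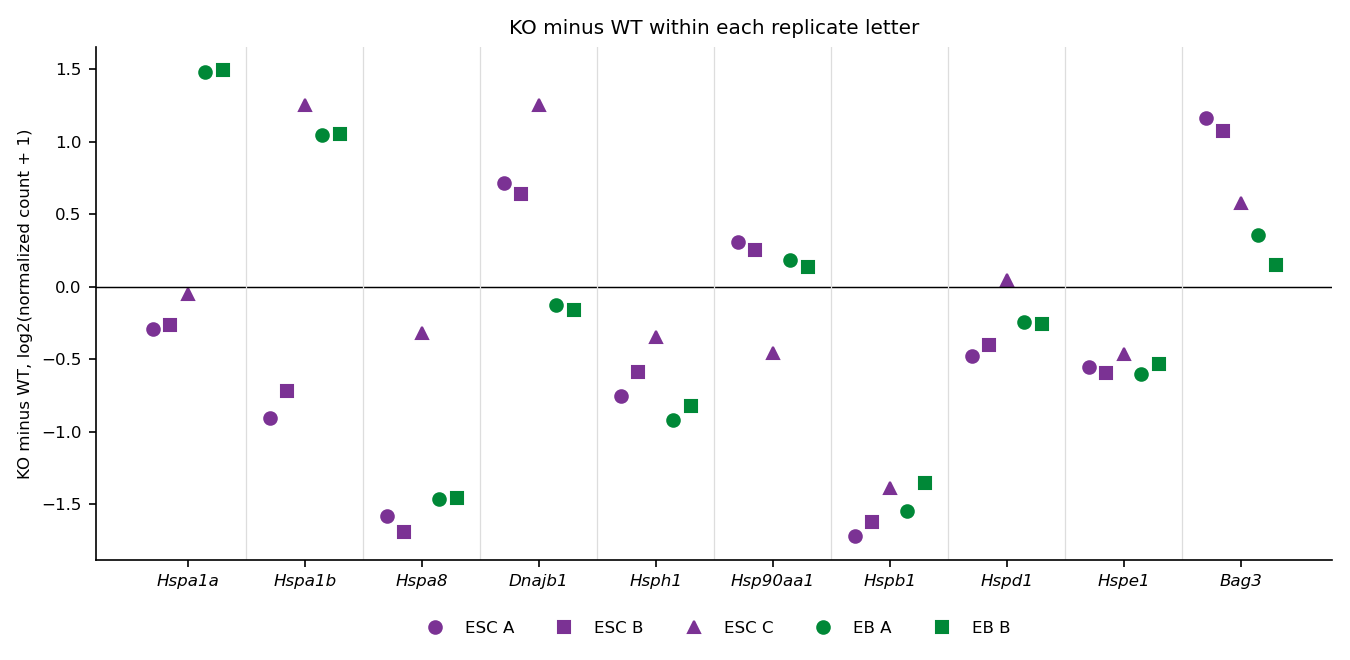
KO minus WT for each member within each replicate letter, as a difference of log2(normalized count + 1), in ESCs (purple) and EBs (green). Hspa8, Hsph1, Hspb1 and Hspe1 lie below 0 in all 5 pairs, and Dnajb1 and Bag3 lie above 0 in all 3 ESC pairs. Pairing by letter rests mainly on C in ESCs and was not established in EBs, and the share of all genes with such signs was not counted.

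Counted over the members, KO against WT gave 0 calls of 10 in ESCs and 0 of 10 in EBs in the limma fit of group means, where 2.38% and 1.84% of all genes were called. The EB count there depends on the spread of the ESC libraries too. A limma fit of the EB libraries alone called 7 members, against 49.2% of all genes. At an unadjusted p under 0.05 it gave 2 members in ESCs and 1 in EBs, against 17.2% and 13.9% of all genes. The count test of edgeR called 0 in ESCs and 1 in EBs, against 2.39% and 1.83%, and DESeq2 called 2 in ESCs and 1 in EBs, against 12.4% and 9.83%. With the block 6 members were called in ESCs (2 higher, 4 lower), against 29.3% of all genes (14.0% higher, 15.3% lower), and 5 in EBs (1 higher, 4 lower), against 22.7% of all genes (9.27% higher, 13.4% lower). Without replicate C, 9 were called in ESCs (3 higher, 6 lower), against 55.0% of all genes (27.3% higher, 27.6% lower), and 7 in EBs (2 higher, 5 lower), against 51.8% of all genes (24.0% higher, 27.8% lower). In EBs 3 members were higher in KO without overlap, 6 were lower and Bag3 overlapped, where 36.0% of all genes were higher without overlap and 38.9% lower, 74.9% in all. The median KO minus WT difference over the 10 members was -0.24 in ESCs and -0.20 in EBs, and that of all genes tested was -0.02 in both.

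In ESCs, 5 members stood apart in replicate C of both genotypes. Replicate C was 29.3 times the mean of A and B for Hspa8 in KO ESCs and 11.8 times in WT ESCs. The ratio in KO and WT ESCs was 7.94 and 6.37 for Hsph1, 7.56 and 5.38 for Hspd1, 6.60 and 5.38 for Hspb1 and 3.92 and 3.62 for Hspe1. These 5 of 10 members lay more than 1 log2 unit above A and B in both genotypes, as did 12.7% of all genes tested. For Hspa1a the ratio was 0.900 in KO ESCs and 0.764 in WT ESCs, where replicate C held 8 and 7 reads.

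Pseudogenes of the members went the other way. Gm8355, a copy of Hspa8, had 636, 835 and 0 normalized counts in KO ESCs and 1297, 1709.8 and 6.59 in WT ESCs. Gm12346, a copy of Hsp90aa1, had 15502, 19394 and 0 in KO ESCs and 13406, 17212 and 0 in WT ESCs, and 7695 and 9707 in KO EBs and 7379 and 9486 in WT EBs. Hspd1-ps3 had 1305, 1604 and 2.78 in KO ESCs and 1770.5, 2182 and 0 in WT ESCs. Copies thus held many reads in A, B and the EBs and almost none in C. Over 462 tested pseudogenes with more than 50% of their windows shared, the median of C minus A and B was -6.49 in KO and -6.57 in WT. It was -5.16 and -5.26 over 285 pseudogenes with 10% to 50% shared, and -2.71 and -3.09 over 50 with none. Over protein-coding genes it was -0.12 and -0.13 for 8926 with no shared window. It was 0.78 in both for 878 with 10% to 50% shared, and -0.06 and -0.09 for 317 with more than 50%. Gene type and sharing were not separated further. Hsph1 shares no window and was also high in C.

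The nearest copies among the deposited genes were added to the 4 members, an alternative chosen after the data were seen. For Hspa8 this was Gm8355 alone (28.3% of windows shared), since Gm15459 (45.0%) was not among those genes. The Hspa8 sum stayed higher in replicate C, at 2006, 1886 and 35462 in KO ESCs and 5400.1, 5117 and 44291 in WT ESCs. The Hspb1 sum did so too, at 713, 541 and 2258 in KO ESCs and 2389, 1730 and 5916 in WT ESCs. For Hspd1 the sums were 3188, 3487 and 14234 in KO ESCs and 4395, 4673 and 13772 in WT ESCs. For Hsp90aa1 the sums were 37437, 43361 and 27935 in KO ESCs and 31367, 37389.7 and 38431 in WT ESCs. The KO minus WT difference of the sums in ESCs was -1.60 for Hspb1 (adjusted p = 0.231, 0.00335 with the block), -1.06 for Hspa8 (0.815, 0.0292 with the block), -0.28 for Hspd1 (0.964, 0.129 with the block) and 0.00 for Hsp90aa1 (0.999, 0.99 with the block). The part of read assignment in the other differences between replicate C and A and B was not tested.

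**Figure D4:**
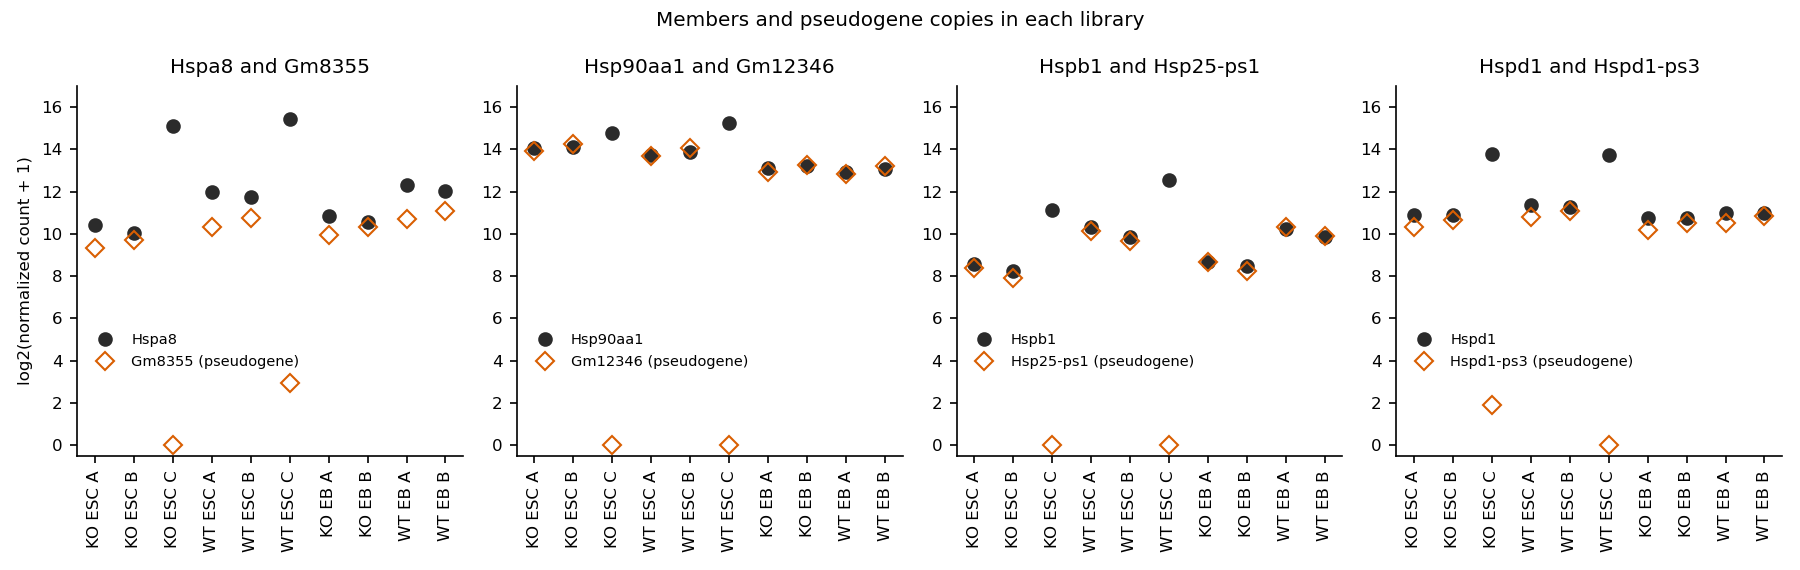
Log2(normalized count + 1) of 4 members (filled circles) and of 1 pseudogene copy of each (open diamonds) in the 10 libraries. In both ESC replicate C libraries the copy has at most 6.59 normalized counts, while the member lies above its level in A and B.

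For EBs against ESCs, Hspa1a was the only member called in the limma fit of group means, in KO (0.805% of all genes called) and in WT (2.48%). It was also the only one called with the block (8.33% and 9.52%). With the block, EBs against ESCs compares the levels fitted for replicate A, not the group means. Over all libraries, 2 members were higher and 5 lower in KO EBs than in KO ESCs without overlap (41.7% of all genes did not overlap), and 3 were higher and 3 lower in WT EBs than in WT ESCs (42.6%). Without replicate C, 6 members were called in KO, 3 higher (Hspa1a, Hspa1b, Hspa8) and 3 lower (Dnajb1, Hsp90aa1, Bag3), against 47.2% of all genes. In WT 4 were called, 2 higher (Hspa1a, Dnajb1) and 2 lower (Hsp90aa1, Hspd1), against 46.1%. Dnajb1 thus had opposite signs, -0.36 in KO (adjusted p = 0.0226) and 0.46 in WT (adjusted p = 0.00743), as given by its difference of KO effects above.

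The difference of the KO effect between EBs and ESCs gave 0 member calls in the group-means fit (0.475% of all genes), 1 with the block (Hspa1a, 7.79%) and 4 without replicate C (36.1%). At an unadjusted p under 0.05 it gave 2 members (8.55% of all genes), and edgeR called 0 (0.646%) and DESeq2 1 (4.90%). The 4 were Hspa1a, Hspa1b (1.86, adjusted p = 0.00973), Dnajb1 and Bag3 (-0.86, adjusted p = 0.0219). For Hspa8, Hsph1, Hsp90aa1, Hspb1, Hspd1 and Hspe1 the difference lay between -0.31 and 0.13 in the group-means fit (adjusted p = 1 for each), and for Hspb1 it was 0.13 ± 1.42. For the same 6 members the difference without replicate C lay between -0.20 and 0.22, with adjusted p from 0.141 to 0.959.

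**Figure D5:**
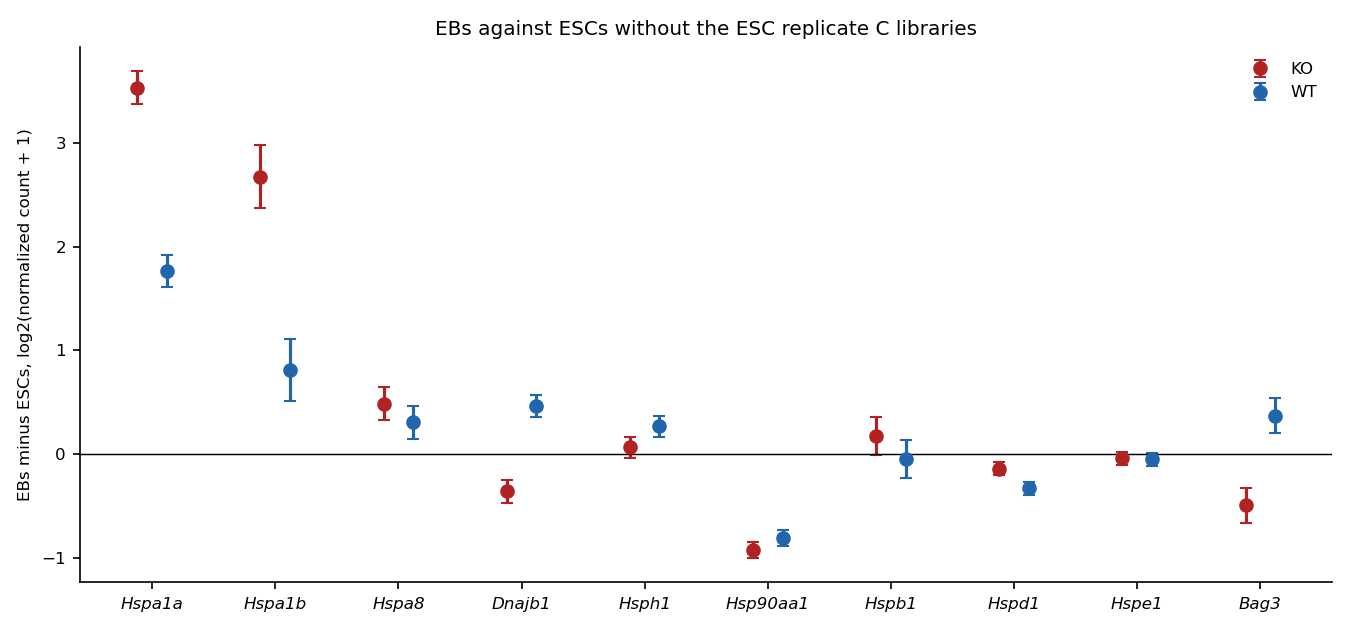
EBs minus ESCs for each member on the log2(normalized count + 1) scale without the ESC replicate C libraries, in KO (red) and WT (blue). Points are limma differences and bars are their SE, and Hspa1a and Hspa1b stand highest in both genotypes.

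Other genes of the heat shock and folding pathways are given as counts, where the lists overlap and were chosen with earlier results known. Beside the counts without the block, 1.31% of all genes were called higher and 1.07% lower in KO ESCs, and 0.469% higher and 1.37% lower in KO EBs. Beside the counts with the block, 14.0% of all genes were called higher and 15.3% lower in KO ESCs, and 9.27% higher and 13.4% lower in KO EBs. HSF1, the main heat shock factor, had Hsf1 transcript differences of 0.22 ± 0.44 in KO ESCs against WT ESCs (adjusted p = 0.946) and 0.25 ± 0.53 in KO EBs against WT EBs (adjusted p = 1), and 0 of 4 tested heat shock factor genes and their regulators were called. With the block, Hsf5 was higher in KO ESCs (1.82, adjusted p = 0.0126), and Hsf2 (-0.58, adjusted p = 0.0297) and the HSF1-binding gene Hsbp1 (-0.53, adjusted p = 0.0224) were lower in KO EBs. Of 12 other HSP70 and exchange factor genes, 2 rose in KO ESCs, namely Bag2 (1.52 ± 0.30, adjusted p = 0.0486) and Bag5 (1.49 ± 0.17, adjusted p = 0.0187), both exchange factors. With the block 2 were higher and 5 lower in ESCs. In EBs 0 of these 12 were called, and with the block 5 were lower, among them Bag2 (-1.62 ± 0.37, adjusted p = 0.0374) and Hspa4 (-0.99 ± 0.13, adjusted p = 0.00969), an HSP110 gene.

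Of 12 other J-domain genes 0 were called in either comparison, and with the block 2 were lower in EBs and 2 were higher and 3 lower in ESCs, with Dnajb4 at 1.09 ± 0.17 (adjusted p = 0.0107). Of 12 HSP90 and cochaperone genes, Fkbp5, an immunophilin of HSP90 complexes, fell in KO ESCs (-1.03 ± 0.21, adjusted p = 0.0493). With the block 10 of these 12 were lower in KO ESCs and 6 in KO EBs, with Stip1, which bridges HSP70 and HSP90, at -0.97 ± 0.15 in ESCs (adjusted p = 0.0106) and -0.96 ± 0.18 in EBs (adjusted p = 0.0223). Of 14 genes for the cytosolic TRiC chaperonin and prefoldin, Cct4 fell in KO EBs (-1.07 ± 0.19, adjusted p = 0.0397). With the block 11 were lower in KO ESCs and 10 in KO EBs, and the median over the list was -0.53 in ESCs and -0.70 in EBs, against -0.02 over all genes in each.

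Among 4 tested small heat shock genes, Cryab, the crystallin relative of Hspb1, fell in KO EBs (-3.45 ± 0.59, adjusted p = 0.0345), where it had 9.18 and 16.1 normalized counts, against 162 and 126 in WT EBs. In ESCs Cryab lay the other way, with 81.1, 54.5 and 99.99 normalized counts in KO and 27.9, 18.3 and 56.0 in WT, a difference of 1.28 (adjusted p = 0.218, 0.0312 with the block). Hspb2 was also higher in KO ESCs with the block (1.83, adjusted p = 0.0298, and 0.0744 without the block), and without replicate C 4 of 4 were called higher in KO ESCs, against 27.3% of all genes. A list of 17 genes held mitochondrial chaperones and proteases and also the stress transcription factor genes Ddit3 and Atf5. Of these, Grpel2, an exchange factor of mitochondrial HSP70, rose in KO ESCs (0.98 ± 0.15, adjusted p = 0.0303). With the block 2 of the 17 were higher and 4 lower in ESCs, and 3 were higher and 2 lower in EBs. Atf5 was among those higher in both, and Ddit3 was among those lower in ESCs. Of 21 other heat-induced genes 0 were called in ESCs and 2 fell in EBs, Cryab and the collagen hydroxylase gene P4ha1 (-2.85 ± 0.50, adjusted p = 0.0382). With the block 4 of the 21 were higher and 6 lower in ESCs, and 9 were lower in EBs. The endoderm marker sums given above also separated the EB groups, and their part in the values of Cryab and P4ha1 was not tested.

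Likeness of pattern was measured as the root mean square difference of centred log2 values over the 10 libraries, among genes with a mean of 100 or more. Among the members, Dnajb1 and Bag3 were closest (0.26), then Hsph1 and Hspd1 (0.30). The genes outside the 10 nearest to Hspa1b were Abcg1 (0.38), Mmp2, Neurl1a, Gnaz and Dact3 (0.46), where the median of all genes was 1.29. Nearest to Hsph1 were Tceal8 (0.12), Psmd11, Rtraf, Odc1 and Ywhaq (0.18), and nearest to Hspd1 were Snu13 (0.10), Rraga, Btf3l4, Serf2 and Eef1g (0.16). The values of Hsph1 and Hspd1 share the high replicate C libraries, so these likenesses are a description.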

How the data were processed

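Poly(A) RNA was sequenced, per the labels, from 3 libraries of each ESC genotype and 2 of each EB genotype, made with the TruSeq RNA Sample Preparation Kit v2. A fibroblast library is not analysed here. The submitters' processing notes name TopHat2 2.0.10 and Bowtie, HTSeq 0.6.0, CASAVA 1.8.2, the normalization tool DESeq and build mm10. The annotation release, strand setting and read length are not given in the sources used here. The deposited signal is a gene's read count that the authors had scaled with DESeq. When the smallest non-zero value of a library was taken as 1 read, 100% of values were whole within 0.01. Between 3026837 and 15426894 reads per library fell in genes. The 5 counter summary lines were left out.

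Symbols (found for 37607 of 39179 identifiers), coordinates and transcripts came from GENCODE for GRCm38, and promoter windows from RefSeq. Genes averaging 10 normalized counts or above, 15781 in number, were tested two-sided on log2(value + 1) in 1 limma 3.58.1 fit (R 4.3.3) of 4 group means with trended, robust variances. P-values were Benjamini-Hochberg adjusted over all of them, and calls needed an adjusted p under 0.05. Alternatives were a pseudocount of 5, no filter, TMM factors, edgeR 4.0.16 and DESeq2 1.42.0 on recovered reads, a replicate block, only the groups compared, and libraries left out. The fit was tested on simulated data, where smaller changes were missed more often in EBs than in ESCs, and a bound on the share of these recovered was dropped after the first run.

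The correlation across genes of deviations from the group mean between KO and WT ESCs of the same letter was 0.845, 0.828 and 0.858, so the letters were taken to pair the ESC libraries. Crossing A with B gave 0.809 and 0.812, so the pairing depends mainly on C. In EBs it was 0.369, with too few pairs to establish pairing, and the block was fitted by letter there too. The members, lists and tests were chosen with earlier results of these data known. All members are named, and from each list the rule allows the 2 called genes per direction with the largest difference and the most abundant gene. A selection of these is given, and Hsf1 was added outside the rule.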

Additional observations from a re-analysis of the deposited data

Results flagged for a closer look

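Hspa1a had a KO effect that was larger in EBs than in ESCs, by 1.69 on the log2(normalized count + 1) scale, in the limma fit with the replicate letter as a block (adjusted p = 0.0253). Both EB pairs had the KO library higher, by 1.48 and 1.49, and all 3 ESC pairs had it lower, with KO minus WT of -0.29, -0.26 and -0.05. The last of these, in replicate C, rests on 8 reads in KO and 7 in WT. Without the block the adjusted p was 0.183, and for the sum of Hspa1a and Hspa1b the difference was 1.41 (adjusted p = 0.595).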

How the results depend on the processing

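The limma fit of group means called 0 of 10 members for KO against WT in ESCs, 0 in EBs, 1 for EBs against ESCs in KO, 1 in WT and 0 for the difference of KO effects. In that order, a replicate block gave 6, 5, 1, 1 and 1, and leaving out both ESC replicate C libraries gave 9, 7, 6, 4 and 4. DESeq2 gave 2, 1, 2, 1 and 1, where it called 12.4%, 9.83%, 8.99%, 9.66% and 4.90% of all genes. With edgeR or a pseudocount of 5, 1 member was called in EBs, where 1.83% and 2.57% of all genes were called. Fitting only the groups compared gave 7 in EBs, where 49.2% of all genes were called. It gave 0 in ESCs and 0 for EBs against ESCs in KO, where 0% of all genes were called. For EBs against ESCs in WT it gave 0 (0.379% of all genes). This fit could not be made for the difference. Summing with pseudogene copies, chosen after seeing the data, gave 6, 5, 1, 1 and 1 with the block and 8, 7, 6, 5 and 4 without replicate C. With single libraries left out the counts ranged over 0 to 1, except 0 to 3 for EBs against ESCs in KO. A group left with 1 library was assumed to vary like the others.

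Over all genes, the counts of 376, 290, 127, 392 and 75 ranged over 0 to 8739, 0 to 8236, 0 to 7496, 5 to 7321 and 0 to 5731. The high ends came without both replicate C libraries, and the low ends with 1 other library left out (for KO against WT in ESCs and EBs against ESCs in KO, also with only the groups compared).

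Some differences changed sign, and the cause was not tested. With the block, EBs minus ESCs is the difference of the levels fitted for replicate A. It is thus not the same quantity as the difference of group means. KO minus WT in ESCs for Hsp90aa1 was -0.060 with edgeR and -0.10 with DESeq2. EBs minus ESCs in KO turned positive with the replicate block and without replicate C for Hspa8 (0.25 and 0.49, summed with copies 0.33 and 0.53), Hsph1 (0.037 and 0.064) and Hspb1 (0.073 and 0.17, summed 0.14 and 0.23). In WT it did so for Hspa8 (0.51 and 0.31, summed 0.50 and 0.33), Hsph1 (0.35 and 0.27) and, only when summed, Hspb1 (0.10 and 0.083). The difference of KO effects turned without replicate C for Hspa8 (0.18, summed 0.21), Hsp90aa1 (-0.12, summed -0.13) and Hspe1 (0.0072), with TMM for Hspe1 (0.027), with edgeR for Hspb1 (-0.014) and Hspd1 (-0.20), with DESeq2 for Hspd1 (-0.18), and when summed for Hspd1 (-0.0032, with and without the block).

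With single libraries left out, KO minus WT in ESCs crossed 0 for Hspa1b (-0.66 to 0.35), Hsph1 (-1.56 to 0.33), Hsp90aa1 (-0.24 to 0.50), Hspd1 (-1.25 to 0.53) and Hspe1 (-1.19 to 0.081). EBs minus ESCs crossed 0 in KO for Hspa8 (-2.05 to 0.49), Hsph1 (-1.49 to 0.064) and Hspb1 (-1.28 to 0.17), and in WT for Hspa8 (-1.54 to 0.31), Hsph1 (-1.09 to 0.27) and Bag3 (-0.044 to 0.37). The difference of KO effects crossed 0 for Hspa8 (-1.45 to 1.37), Hsph1 (-1.20 to 0.69), Hsp90aa1 (-0.34 to 0.40), Hspb1 (-0.69 to 1.04), Hspd1 (-0.78 to 1.00) and Hspe1 (-0.65 to 0.63). Of the 50 member differences, 17 crossed 0 and 16 more kept their sign but moved by over 1.5 times. Among these, KO minus WT in ESCs was -2.83 for Hspa8 and -2.49 for Hspb1 without KO ESC replicate C, and -0.011 for Hspa8 and -0.76 for Hspb1 without WT ESC replicate C.

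Leaving out KO ESC replicate C alone called Dnajb1 in ESCs (0.63, adjusted p = 0.0293), where 13.7% of all genes were called. Leaving out WT ESC replicate C alone called Bag3 there (1.19, adjusted p = 0.0217), where 8.48% were called. Either omission called Hspa1a in EBs (adjusted p = 0.022 and 0.0199), against 7.39% and 6.33% of all genes. Without WT ESC replicate C, Hspa1b and Hsp90aa1 were also called for EBs against ESCs in KO (adjusted p = 0.0157 and 0.04), against 5.80% of all genes. Hspa1a was then called for the difference of KO effects (adjusted p = 0.0478), against 2.12%. Hspa1a kept its EBs against ESCs call in KO only when either replicate C library was the one left out.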

Other observations

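In ESC replicate C, per kilobase of exon, Hspa8 was the most abundant of the 10 members, with 8245 normalized counts per kilobase in KO and 10296 in WT, ahead of Hsp90aa1 with 7104 in KO and 9776 in WT. Each value is from 1 library. The stress transcription factor gene Ddit3 had 367, 331 and 80.5 normalized counts in KO ESCs and 1024, 936 and 181 in WT ESCs. Atf5 had 1636 and 1139 in KO EBs and 502 and 400.3 in WT EBs. The limma fit of group means gave -1.38 for Ddit3 in ESCs (adjusted p = 0.456, and 0.00355 with the replicate block) and 1.60 for Atf5 in EBs (adjusted p = 0.128, and 0.00295 with the block). In EBs the Ddit3 difference was 0.18 (adjusted p = 1, and 0.335 with the block).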
